A study of Sus scrofa with 9 samples.

Results

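The genes described here are 10 parts of the NF-kB system, named by symbol: the subunit genes NFKB1, NFKB2, RELB and REL, the feedback inhibitors NFKBIA, TNFAIP3 and IER3, and the induced target genes CD83, TRAF1 and BIRC3. They were looked up by gene name in a table of 25149 porcine genes. The table listed 9 of the 10, each once, and no gene was named RELB there, so its level is not reported. All 9 listed genes passed the filter on low values (1 TPM or more in 3 or more hearts), which left 11782 genes in all.

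NF-kB is a family of dimeric transcription factors that is held in the cytoplasm of resting cells by IkB proteins. Cytokines, microbial products and reperfusion after ischemia activate IkB kinases, the IkB protein is degraded, and the freed dimers enter the nucleus and switch on genes of inflammation, cell survival and adhesion. Several of the genes switched on encode inhibitors of the same route, which can limit its activation.

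The study modelled donation after circulatory death (DCD) in female American Yorkshire pigs aged 4 to 6 months. Every heart underwent 15 min of warm ischemia in the animal, was preserved in the cold, and was then reperfused for 2 h by normothermic machine perfusion (NMP) on a circuit primed with porcine whole blood. Group 1 (NRP + HOPE 24 h; pigs 27, 28 and 30) first had blood flow restored inside the animal for 60 min, called normothermic regional perfusion (NRP), and then 24 h of hypothermic oxygenated perfusion (HOPE) at 8 °C. Group 2 (NRP + SCS 2 h; pigs 24, 25 and 29) received the same NRP and then 2 h of static cold storage (SCS) at 4 °C. Group 3 (No NRP + HOPE 2 h; pigs 31, 33 and 34) was procured without NRP and kept in HOPE at 8 °C for 2 h. Each heart gave 1 biopsy of the apex, taken when NMP ended, so there is no measurement before reperfusion and no heart without ischemia.

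Values are in TPM, a transcript level that is corrected for length and scaled so that each heart sums to 1000000, which allows levels of different genes to be compared within a heart. Each heart was a separate animal, with n = 3 per group. The number of reads behind each value is unknown, because TPM keep no depth. The labels give the cell type as cardiomyocytes, but the sample was a piece of ventricular wall, and fewer cells of a type and less RNA per cell cannot be told apart in it. The 13 mitochondrially encoded genes took from 38.2% of the TPM in pig 30 to 55.3% in pig 27. Scaling factors by the median-of-ratios method ran from 0.737 in pig 27 and 0.781 in pig 31 to 1.34 in pig 30, and the other hearts lay between 0.916 and 1.18. Pigs 27, 30 and 31 had the factors farthest from 1. Values after that scaling, or without 1 of these hearts, are given beside the results they moved most.

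IER3 and NFKBIA were the most abundant of the 9 genes, with mean levels at the 98.0th and 97.8th percentiles of all genes tested. BIRC3, NFKB2 and CD83 lay between the 84.3th and 87.3th percentiles, TNFAIP3 at the 77.4th, NFKB1 and REL at the 62.4th and 60.1th, and TRAF1 at the 38.8th. In Group 2 the order of mean TPM was NFKBIA, IER3, BIRC3, NFKB2, CD83, TNFAIP3, NFKB1, REL and TRAF1. NFKBIA could not be placed above IER3, nor CD83, TNFAIP3 and NFKB1 in order, because the ranges of those neighbours overlapped. In Group 1 the mean of IER3 exceeded that of NFKBIA, with overlapping ranges, and CD83, NFKB2, BIRC3 and TNFAIP3 followed at similar levels. In Group 3 the order was close to that of Group 2, with TNFAIP3, REL, NFKB1 and TRAF1 each overlapping the next. The widest spread over the 9 hearts was that of TNFAIP3, whose highest level was 11.5 times its lowest, and the narrowest was that of BIRC3, at 1.67 times.

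**Figure D1:**
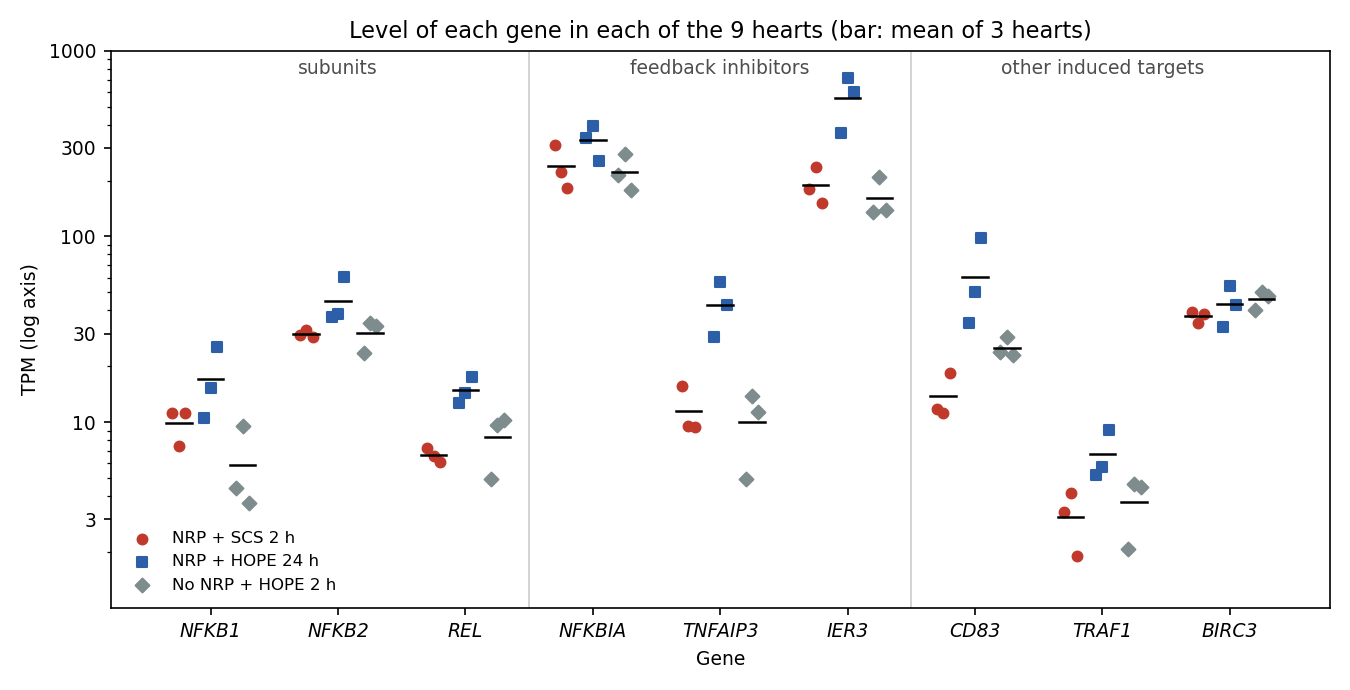
TPM (log axis) of the 9 listed genes in each heart, 1 point per heart, with colours for the 3 groups and a bar at the mean of 3 hearts. TNFAIP3 and IER3 show all Group 1 hearts above the other 6 hearts, whereas the NFKBIA and BIRC3 points of the groups overlap or nearly touch.

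The first comparison set Group 1 against Group 2, hearts that shared NRP and differed in the method, duration and temperature of storage together. Among the subunit genes, REL had the largest difference. REL (ENSSSCG00000008388) encodes c-Rel, a subunit with a transactivation domain that is best known in lymphoid and myeloid cells. Its level was 7.25, 6.53 and 6.09 TPM in pigs 24, 25 and 29, against 12.6, 14.3 and 17.6 TPM in pigs 27, 28 and 30. Every Group 1 heart was above every Group 2 heart. The log2 fold change, on the log2(TPM + 1) scale, was 1.05 (SE 0.32, 95% interval 0.36 to 1.73; limma adjusted p = 0.668).

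NFKB2 (ENSSSCG00000010580) encodes p100, the precursor of p52 and an inhibitor of the non-canonical route until it is processed. It measured 29.4, 31.2 and 28.7 TPM in pigs 24, 25 and 29 and 36.7, 38.3 and 60.3 TPM in pigs 27, 28 and 30. The Group 1 hearts were again all higher, and pig 30 stood above its 2 partners. The log2 fold change was 0.55 (SE 0.29, 95% interval -0.07 to 1.16; limma adjusted p = 0.993), and 0.32 without pig 30. After median-of-ratios scaling the Group 1 hearts were still all higher, at 49.8, 41.8 and 44.9 TPM in pigs 27, 28 and 30, and pig 27 was then the highest.

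NFKB1 (ENSSSCG00000030957), the gene of p105 and its product p50, measured 11.1, 7.48 and 11.2 TPM in pigs 24, 25 and 29 and 10.6, 15.4 and 25.4 TPM in pigs 27, 28 and 30. Pig 27 lay inside the range of Group 2, and the log2 fold change was 0.67 (SE 0.39, 95% interval -0.17 to 1.50; limma adjusted p = 0.993). After median-of-ratios scaling, which raised pig 27 to 14.4 TPM and lowered pig 30 to 18.9 TPM, the groups no longer overlapped. Without pig 30 the log2 fold change of NFKB1 was 0.35.

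Of the feedback inhibitors, TNFAIP3 and IER3 differed most. TNFAIP3 (ENSSSCG00000004154) encodes A20, a ubiquitin-editing enzyme that stops signalling from TNF and Toll-like receptors upstream of the IkB kinases. It measured 15.6, 9.58 and 9.38 TPM in pigs 24, 25 and 29 and 28.7, 57.0 and 42.9 TPM in pigs 27, 28 and 30, a ratio of mean TPM of 3.72. All Group 1 hearts were higher, and the lowest of them was still well above pig 24. The log2 fold change was 1.79 (SE 0.39, 95% interval 0.96 to 2.63; limma unadjusted p = 0.000421, adjusted p = 0.199), rank 24 by p among all genes tested.

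IER3 (ENSSSCG00000027607), an immediate early gene whose product restrains NF-kB activity and alters cell survival, measured 181, 236 and 151 TPM in pigs 24, 25 and 29. In pigs 27, 28 and 30 it measured 360, 710 and 596 TPM. The groups were apart, and the mean TPM was 2.94 times higher in Group 1. The log2 fold change was 1.52 (SE 0.30, 95% interval 0.87 to 2.17; limma unadjusted p = 0.000211, adjusted p = 0.138).

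NFKBIA (ENSSSCG00000001952) encodes IkBalpha, the inhibitor that binds the dimers directly and is itself made in response to them. Despite its high level, its groups overlapped: 312, 222 and 182 TPM in pigs 24, 25 and 29 against 340, 391 and 256 TPM in pigs 27, 28 and 30. Pig 24 exceeded pig 30, and the log2 fold change was 0.48 (SE 0.28, 95% interval -0.13 to 1.08; limma adjusted p = 0.993), and 0.30 without pig 29. With median-of-ratios scaling the 3 Group 1 hearts spread further, from 191 TPM in pig 30 to 462 TPM in pig 27.

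CD83 had the largest log2 fold change of the 9 genes in this comparison. CD83 (ENSSSCG00000021576) encodes a membrane protein of the immunoglobulin family that is known as a marker of mature dendritic cells and is also induced in other activated cells. It measured 11.8, 11.2 and 18.4 TPM in pigs 24, 25 and 29 and 34.1, 50.1 and 98.2 TPM in pigs 27, 28 and 30. All Group 1 hearts were higher, with pig 30 far above the others, and the ratio of mean TPM was 4.41. The log2 fold change was 1.96 (SE 0.37, 95% interval 1.17 to 2.75; limma unadjusted p = 0.000111, adjusted p = 0.127). Without pig 30 it was 1.55, the lowest value over the hearts left out.

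TRAF1 (ENSSSCG00000005511), an adaptor of TNF receptors that binds the ubiquitin ligases cIAP1 and cIAP2, was the least abundant of the 9 genes. It measured 3.28, 4.14 and 1.89 TPM in pigs 24, 25 and 29 and 5.21, 5.77 and 9.13 TPM in pigs 27, 28 and 30. The groups did not overlap, and the log2 fold change was 0.91 (SE 0.36, 95% interval 0.13 to 1.69; limma unadjusted p = 0.0249, adjusted p = 0.943).

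BIRC3 (ENSSSCG00000027529) encodes cIAP2, which ubiquitinates RIPK1 and takes part in the turnover of the kinase of the non-canonical route. It measured 39.0, 34.4 and 38.1 TPM in pigs 24, 25 and 29 and 32.4, 54.2 and 42.5 TPM in pigs 27, 28 and 30. Pig 27 had the lowest level of all 9 hearts and pig 28 the highest, and the log2 fold change was 0.18 (SE 0.27, 95% interval -0.41 to 0.76; limma adjusted p = 0.993). It was 0.36 without pig 27 and 0.0008 without pig 28. With median-of-ratios scaling it was 0.32, and the lowest BIRC3 level was that of pig 30, at 31.6 TPM, with pig 27 at 44.0 TPM.

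In counts, none of the 9 genes passed the threshold in Group 1 against Group 2 (limma adjusted p under 0.05 with a log2 fold change above 1 or below -1), which 0.0255% of all genes did. At an unadjusted p under 0.05, 5 of the 9 were higher (REL, TNFAIP3, IER3, CD83 and TRAF1) and none was lower, where 1.82% of all genes were higher and 3.14% lower. The 2 groups were apart for 6 of the 9 genes, all higher in Group 1, against 2.5% of all genes higher and 7.32% lower. Of the 9 genes, 4 had a log2 fold change over 1, against 1.54% of all genes, and all 9 were above 0, against 35.9%. The median log2 fold change was 0.91 over the 9 genes and -0.12 over all genes. After median-of-ratios scaling 7 of the 9 genes were higher at an unadjusted p under 0.05, against 4.67% of all genes, and groups were apart for 7, against 7.17%. All 9 were still above 0, against 50.2% of all genes. The 9 genes were chosen with earlier results of these data known, so contrasts with all genes, here and below, may partly reflect that choice.

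The count past the threshold depended on how the hearts were scaled and weighted. Median-of-ratios scaling moved the median of all genes to 0.0018 and that of the 9 genes to 1.02. CD83 then passed (log2 fold change 2.10, limma adjusted p = 0.0224), where 0.0342% of all genes did. Limma array weights, which were lowest in pig 30, were 0.576, 1.98 and 0.305 in pigs 27, 28 and 30. With these weights TNFAIP3 (2.04, limma adjusted p = 0.0247), IER3 (1.63, adjusted p = 0.0268) and CD83 (1.87, adjusted p = 0.0149) passed, where 0.509% of all genes did. Over the 17 alternatives the adjusted p ranged from 0.0247 to 0.819 for TNFAIP3, from 0.0268 to 0.652 for IER3 and from 0.0149 to 0.413 for CD83. An exact permutation test of 3 hearts against 3 cannot give a two-sided p below 0.1, the value of each of the 6 genes whose groups were apart.

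**Figure D2:**
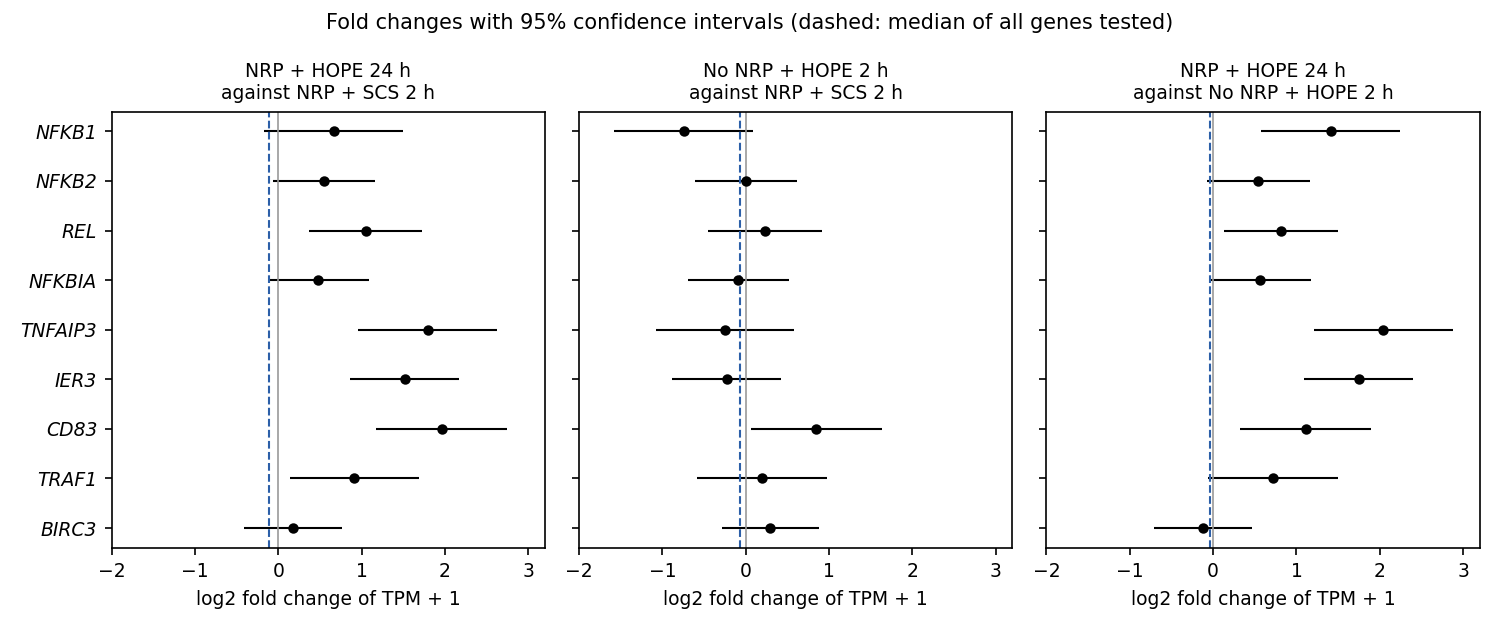
Log2 fold change on the log2(TPM + 1) scale of each gene in the 3 comparisons, with 95% intervals from limma that are not adjusted for the number of genes, and a line at the median of all genes tested. The intervals of REL, TNFAIP3, IER3, CD83 and TRAF1 lie above 0 in Group 1 against Group 2, and in Group 3 against Group 2 that of CD83 alone does.

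The second comparison set Group 3 against Group 2, which were stored for the same 2 h and differed in NRP and in the method and temperature of storage together. It used the same Group 2 hearts as the first. CD83 measured 23.7, 28.7 and 22.9 TPM in pigs 31, 33 and 34, so that all were above the Group 2 hearts but below every Group 1 heart. Its log2 fold change was 0.85 (SE 0.37, 95% interval 0.06 to 1.63; limma unadjusted p = 0.0367, adjusted p = 0.661).

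BIRC3, at 40.2, 50.2 and 47.5 TPM in pigs 31, 33 and 34, was also above every Group 2 heart, by a smaller step (log2 fold change 0.30, SE 0.27, 95% interval -0.29 to 0.88). NFKB1 had the largest difference in the other direction. It measured 4.40, 9.49 and 3.68 TPM in pigs 31, 33 and 34, with pig 33 inside the range of Group 2 and the other 2 below it. The log2 fold change was -0.75 (SE 0.39, 95% interval -1.58 to 0.09; limma adjusted p = 0.736), and -0.30 with array weights.

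TNFAIP3 measured 4.94, 13.9 and 11.3 TPM and IER3 136, 210 and 139 TPM in pigs 31, 33 and 34. Both overlapped Group 2, with log2 fold changes of -0.25 (95% interval -1.08 to 0.58) and -0.23 (95% interval -0.88 to 0.42). With median-of-ratios scaling they were -0.16 and -0.13, and without pig 31 they were 0.15 and -0.12. Over the hearts left out, TNFAIP3 ranged from -0.52 to 0.15 and IER3 from -0.43 to -0.06. The intervals leave room for a difference of up to about 1 log2 unit in TNFAIP3. NFKBIA, at 214, 277 and 177 TPM, had a log2 fold change of -0.09 (95% interval -0.69 to 0.52), which turned to 0.0136 with median-of-ratios scaling, 0.0885 with array weights, 0.12 without pig 24 and 0.07 without pig 34.

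NFKB2 was at 23.7, 34.1 and 32.8 TPM and REL at 4.93, 9.64 and 10.3 TPM in pigs 31, 33 and 34, with log2 fold changes of 0.0042 (95% interval -0.61 to 0.62) and 0.23 (95% interval -0.45 to 0.91). TRAF1 measured 2.06, 4.64 and 4.47 TPM, and its log2 fold change was 0.19 (95% interval -0.59 to 0.97). In NFKB2, REL and TRAF1 pig 31 was below every Group 2 heart or near the lowest of them, and pigs 33 and 34 were above all of them. Median-of-ratios scaling changed this placement of single hearts. Pig 31 was then above every Group 2 heart in NFKB2, at 30.4 TPM, and inside their range in REL, at 6.32 TPM, while pig 34 lay inside it in NFKB2, at 27.7 TPM, and in TRAF1, at 3.78 TPM. Without pig 31 the log2 fold change was 0.16 in NFKB2, 0.52 in REL and 0.48 in TRAF1. In REL it was 0.10 without pig 33 and 0.06 without pig 34, and in TRAF1 0.04 and 0.06. TRAF1 turned to -0.04 without pig 29.

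Of the 9 genes, 0 passed the threshold with limma in Group 3 against Group 2 (0.0509% of all genes passed), and 0 passed under any of the 17 alternatives. At an unadjusted p under 0.05, 1 gene was higher, CD83, and none was lower, where 2.57% of all genes were higher and 4.65% lower, and leaving out any 1 of pigs 24, 25, 31 or 33 brought that count to 0. Groups were apart for CD83 and BIRC3, both higher in Group 3, against 4.44% of all genes higher and 10.3% lower. None of the 9 had a log2 fold change over 1, against 2.02% of all genes, and 5 were above 0, against 42.2%. The median log2 fold change was 0.0042 over the 9 genes and -0.07 over all genes. After median-of-ratios scaling the counts of genes higher and of groups apart were still 1 and 2, against 5.83% and 8.08% of all genes.

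Group 1 was also set against Group 3, a pair that the study did not name as a comparison and that differed in NRP and in the duration of HOPE together. It reused the hearts of both comparisons above, so its values are not independent of theirs. IER3 had the smallest p: every Group 1 heart was above 360 TPM and every Group 3 heart below 210 TPM, with a log2 fold change of 1.75 (SE 0.30, 95% interval 1.09 to 2.40; limma unadjusted p = 5.5e-05, adjusted p = 0.0815). TNFAIP3 followed with a log2 fold change of 2.04 (SE 0.39, 95% interval 1.21 to 2.87; limma unadjusted p = 0.00013, adjusted p = 0.140).

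NFKB1 differed by a log2 fold change of 1.41 (SE 0.39, 95% interval 0.58 to 2.25; limma adjusted p = 0.389), the largest of the subunits, and no Group 3 heart reached the level of pig 27. CD83 differed by 1.11 (SE 0.37, 95% interval 0.33 to 1.90; limma adjusted p = 0.541) and REL by 0.82 (SE 0.32, 95% interval 0.13 to 1.50; limma adjusted p = 0.743). For NFKBIA (0.56), NFKB2 (0.54), TRAF1 (0.72) and BIRC3 (-0.12) the 95% interval included 0. Without pig 30 the log2 fold change was 0.70 in CD83 and 0.32 in NFKB2, and without pig 31 it was 0.52 in REL and 0.44 in TRAF1.

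With limma, 0 of the 9 genes passed the threshold in Group 1 against Group 3, where 0.0509% of all genes did. IER3 passed with array weights (1.71, limma adjusted p = 0.0420) and when pig 33 was left out (1.95, limma adjusted p = 0.0350), and its adjusted p ranged from 0.0350 to 0.435 over the 17 alternatives. At an unadjusted p under 0.05, 5 of the 9 genes were higher and none lower, against 2.78% and 3.23% of all genes, and groups were apart for 7 of the 9, all but NFKBIA and BIRC3 and all higher, against 2.97% of all genes higher and 4.51% lower. Of the 9 genes, 4 had a log2 fold change over 1, against 2.11% of all genes, and 8 were above 0, against 46.1%. The median log2 fold change was 0.82 over the 9 genes and -0.03 over all genes. After median-of-ratios scaling 7 genes were higher at an unadjusted p under 0.05 and groups were apart for 7, against 6.13% and 8.36% of all genes.

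The feedback inhibitors were then set against the subunits within each heart, as the mean log2(TPM + 1) of NFKBIA, TNFAIP3 and IER3 minus that of NFKB1, NFKB2 and REL. This difference does not depend on the scaling between hearts, apart from the effect of the pseudocount. It was 2.76, 2.69 and 2.27 log2 units in pigs 24, 25 and 29, 3.09, 3.56 and 2.60 in pigs 27, 28 and 30, and 2.60, 2.60 and 2.48 in pigs 31, 33 and 34. Pigs 27 and 28 were above all other hearts, and pig 30, the heart with the highest levels of all 3 subunit genes as deposited, lay inside the range of Group 2. The group means were 3.08 ± 0.48 (SD, n = 3) in Group 1, 2.58 ± 0.26 in Group 2 and 2.56 ± 0.07 in Group 3.

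**Figure D3:**
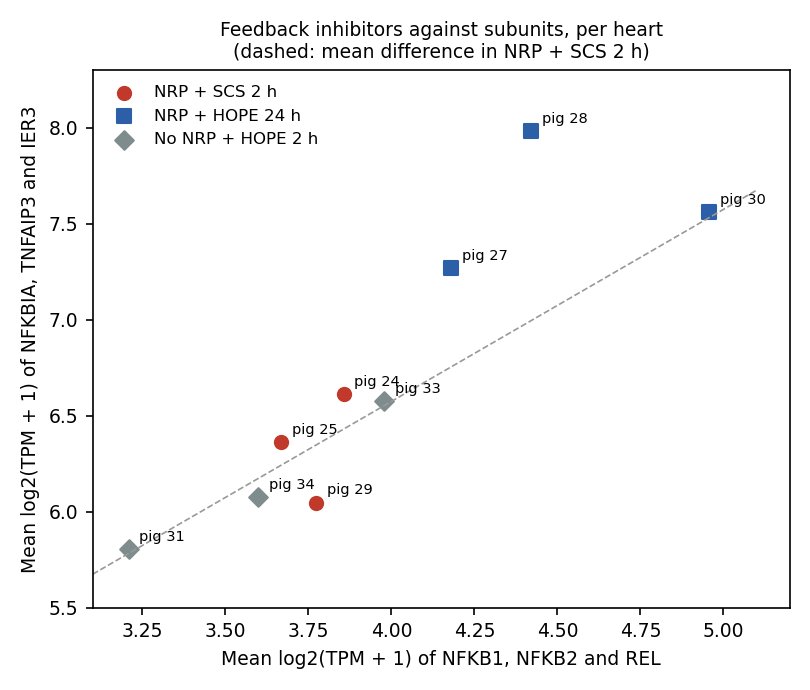
Mean log2(TPM + 1) of the inhibitors NFKBIA, TNFAIP3 and IER3 (vertical axis) against that of the subunits NFKB1, NFKB2 and REL (horizontal axis), 1 point per heart, coloured by group. Pigs 27 and 28 have the largest excess of inhibitors over subunits, 3.09 and 3.56 log2 units, and pig 30 is farthest to the right with an excess of 2.60.

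The hearts of Group 1 were not alike in which genes were high. As deposited, pig 30 had the highest level of the 9 hearts in 5 genes (NFKB1, NFKB2, REL, CD83 and TRAF1) and pig 28 in the other 4 (NFKBIA, TNFAIP3, IER3 and BIRC3). After median-of-ratios scaling, pig 27 was highest in 4 genes, pig 28 in 3 and pig 30 in 2. The mean of the 9 standardized log2 levels was 0.33, 1.15 and 1.33 SD in pigs 27, 28 and 30, -0.30, -0.57 and -0.73 in pigs 24, 25 and 29, and -0.98, 0.15 and -0.38 in pigs 31, 33 and 34. All 3 Group 1 hearts were above the rest, with pig 33 nearest to them.

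Correlations among the 9 genes were taken over the 9 hearts. The Pearson correlation of log2(TPM + 1) was above 0 in all 36 pairs, with a median of 0.72, where 75.8% of all pairs of genes tested were above 0 with a median of 0.29. It was highest for TNFAIP3 with IER3 (0.93) and lowest for NFKB1 with BIRC3 (0.06), and BIRC3 reached at most 0.40 with any of the others. When each group's mean was first removed, the median was 0.44 and 33 of 36 pairs were above 0, beside a median of 0.38 and 78.9% above 0 over all pairs. NFKBIA was then below 0 with CD83 (-0.46), NFKB2 (-0.32) and REL (-0.03). These values describe 9 hearts whose libraries, groups and TPM totals the genes share, and no p is given.

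The rest of the route was described with 7 lists of 103 further genes by role, of which the table listed 84 and 70 passed the filter. In Group 1 against Group 2 none of the 70 passed the threshold with limma, and at an unadjusted p under 0.05 there were 8 higher and 0 lower, where 1.82% of all genes were higher and 3.14% lower. The median log2 fold change over the 70 genes was 0.04.

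RELA, which encodes p65, the main transactivating subunit, measured 30.0, 27.9 and 28.1 TPM in pigs 24, 25 and 29, 28.1, 32.3 and 36.3 TPM in pigs 27, 28 and 30, and 26.8, 42.4 and 34.1 TPM in pigs 31, 33 and 34. As deposited, the 3 groups overlapped, unlike REL and NFKB2 in Group 1 against Group 2. Pig 31, the lowest heart, had a scaling factor of 0.781, so median-of-ratios scaling raises its RELA level. The overlap of Groups 3 and 2 may not hold after that scaling. In the list of RELA and the remaining IkB family, the median log2 fold change over 7 genes tested was 0.41, the largest value was 0.60 in NFKBIE, which encodes IkBepsilon, and none was past an unadjusted p of 0.05. NFKBIE was at 0.90 without pig 27 and 0.35 without pig 30.

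Genes that carry the signal to NF-kB went in both directions in Group 1 against Group 2. The median log2 fold change was -0.17 over 14 kinases, -0.15 over 10 adaptors and ubiquitin ligases, 0.14 over 8 receptors and -0.20 over 5 ligands. Over all genes it was -0.12. The largest values in these lists were those of IRAK2, a kinase-like protein of the interleukin-1 receptor complex (0.78), TIRAP, an adaptor of Toll-like receptors (0.59), TLR4, the receptor for lipopolysaccharide (0.72), and the cytokine IL1A (1.58). IRAK2, TLR4 and IL1A were past an unadjusted p of 0.05. TIRAP rested on pig 30, at 10.4 TPM beside 3.31 and 3.49 TPM in pigs 27 and 28, and its log2 fold change was 0.13 without that heart.

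IL1A, the ligand with the largest difference, measured 1.44, 3.22 and 1.97 TPM in pigs 24, 25 and 29 and 4.65, 13.0 and 9.35 TPM in pigs 27, 28 and 30. All Group 1 hearts were higher (log2 fold change 1.58, SE 0.45, 95% interval 0.62 to 2.54; limma adjusted p = 0.479). TNF was at 2.50 TPM or less in every heart. IL6 was below 1 TPM in every heart and was not tested.

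Among 11 further negative regulators tested the median log2 fold change was -0.01, and none was past an unadjusted p of 0.05 in Group 1 against Group 2. The largest absolute value was that of PDLIM2, which promotes breakdown of nuclear p65 (-0.50, and -0.31 without pig 27). Among 15 further target genes the median was 0.38, with 5 higher at an unadjusted p under 0.05, where 1.82% of all genes were. The neutrophil chemokine CXCL2 had the largest value (log2 fold change 2.50, SE 0.63; limma adjusted p = 0.358). CXCL2 passed the threshold with array weights.

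**Figure D4:**
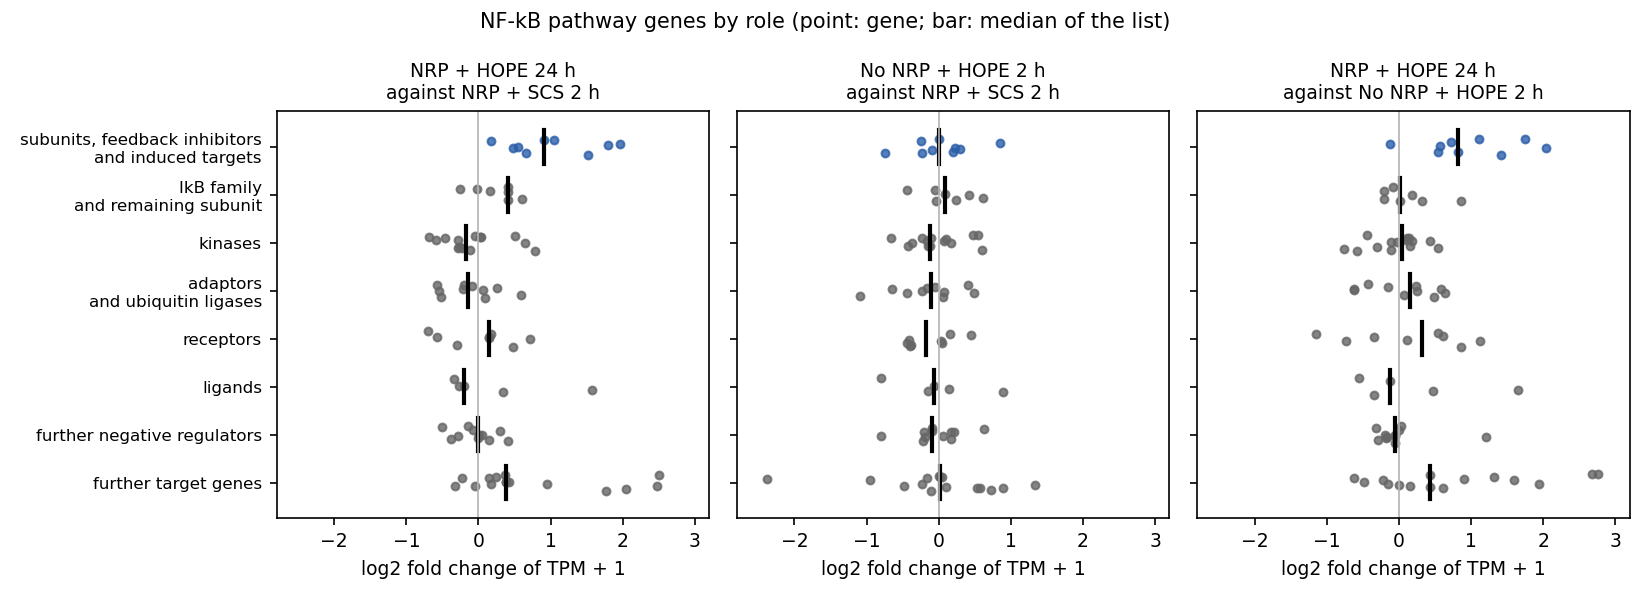
Log2 fold change on the log2(TPM + 1) scale of every tested gene of the 9 and of the 7 role lists, 1 point per gene and 1 panel per comparison, with a bar at each list's median. In Group 1 against Group 2 the kinases, adaptors and further negative regulators centre near 0 (medians -0.17, -0.15 and -0.01), and the 9 genes have a median of 0.91.

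In Group 3 against Group 2 none of the 70 genes passed the threshold with limma, and at an unadjusted p under 0.05 there were 2 higher and 5 lower, with a median log2 fold change of -0.04. Of all genes, 2.57% were higher and 4.65% lower by that measure. TNIP1, which encodes ABIN1, a partner of A20, measured 49.5, 78.6 and 58.8 TPM in pigs 31, 33 and 34 against 100.3, 116 and 105 TPM in pigs 24, 25 and 29. All Group 3 hearts were lower (log2 fold change -0.80, SE 0.29; limma adjusted p = 0.565), while its partner TNFAIP3 overlapped between these groups.

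MALT1, a scaffold and protease of the route from antigen receptors, was also lower in every Group 3 heart, at 3.84, 3.82 and 6.72 TPM against 12.7, 9.51 and 11.2 TPM in pigs 24, 25 and 29 (log2 fold change -1.10, SE 0.33; limma adjusted p = 0.450). It passed the threshold only with array weights among the 17 alternatives. The largest values in the other lists were 0.62 in NFKBID, -0.66 in MAP3K14, 0.45 in TNFRSF11A and 0.90 in IL18. TNFRSF11A rested on pig 34, at 16.2 TPM beside 2.34 and 3.79 TPM in pigs 31 and 33, and turned to -0.25 without it, while it was 0.08 without pig 29 and 0.93 without pig 31. MAP3K14 was at -0.34 without pig 31 and -1.11 without pig 34. IL18 ran from 0.43, without pig 33, to 1.47 over its 16 alternatives. The target gene PTX3 had the largest of all, at -2.38 (SE 0.44; limma adjusted p = 0.103), and passed the threshold with array weights and without pig 29.

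PTX3 was the one gene of the 70 that passed the threshold in any comparison with the reported fit. It encodes pentraxin 3, a secreted pattern-recognition protein made by endothelial and myeloid cells. Its level was 71.9, 104 and 125 TPM in pigs 27, 28 and 30 and 10.2, 22.9 and 10.5 TPM in pigs 31, 33 and 34, against 97.9, 122 and 35.4 TPM in pigs 24, 25 and 29. It was higher in all Group 1 hearts than in any Group 3 heart (log2 fold change 2.76, SE 0.44, 95% interval 1.81 to 3.71; limma adjusted p = 0.0482). The call was lost in 11 of 17 alternatives, among them leaving out any 1 of pigs 27, 28, 30, 31 and 34, and over all 17 the adjusted p ranged from 0.00499 to 0.376.

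At an unadjusted p under 0.05, 11 of the 70 genes were higher and 0 lower in Group 1 against Group 3, where 2.78% and 3.23% of all genes were, and 6 of the 11 were in the list of further targets. By role the largest values were 0.86 in NFKBIZ, -0.76 in IRAK4, 0.64 in TIRAP, -1.15 in TNFRSF11A, 1.65 in IL1A and 1.21 in TNIP1. Without pig 34, TNFRSF11A was at -0.45 and IRAK4 at -0.45. TLR4, at 1.13, was nearly as large as TNFRSF11A in the other direction, and its groups were apart. TIRAP was at 0.18 without pig 30 and 0.20 without pig 31. TNIP1 was at 109, 132 and 204 TPM in pigs 27, 28 and 30, above every Group 3 heart (limma adjusted p = 0.277). The medians of the 7 lists lay between -0.12 for the ligands and 0.44 for the further targets.

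Markers of the cell types that a piece of myocardium can hold were summed for each heart from TPM as deposited. Ranges after median-of-ratios scaling are not given and may overlap differently. Cardiomyocyte markers (9 of 12 listed) summed to between 31809 and 60714 TPM, with overlapping ranges in the 3 groups, and were far above every other type. Summed endothelial markers (7 of 10 listed) were 568 to 673 TPM in Group 2, 319 to 655 in Group 1 and 320.1 to 633 in Group 3. Fibroblast markers (5 of 8 listed) were 669 to 982, 763 to 1116 and 1020 to 1150 TPM in the same order, and mural cell markers (7 of 8 listed, with MYH11 at 0 in all hearts) were 287 to 403, 201 to 329 and 408 to 456 TPM.

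CD83, REL and TRAF1 are known from immune cells, so leukocyte markers are given beside them. Dendritic cell markers (6 of 8 listed, with BATF3 at 0 and XCR1 and LAMP3 under 1 TPM in all hearts) summed to 2.21, 2.29 and 2.32 TPM in pigs 24, 25 and 29, 1.19, 2.75 and 5.22 TPM in pigs 27, 28 and 30, and 3.01, 5.14 and 3.35 TPM in pigs 31, 33 and 34. As in CD83, the order within Group 1 was pigs 27, 28 and 30, an order that the endothelial, fibroblast, mural, macrophage, neutrophil, T and NK cell and erythroid sums shared. The scaling factors of these hearts, 0.737, 0.916 and 1.34, followed that order too, and its dependence on scaling was not tested. Every Group 3 heart was above every Group 2 heart in the sum and in CD83, but Group 3 was above pigs 27 and 28 in the sum and below every Group 1 heart in CD83. In pig 30 CCR7 made up 3.06 TPM of the sum, and in pig 31 CD1D made up 1.38 TPM, so different genes carried it at these low levels. Macrophage and monocyte markers (6 of 10 listed) summed to 81.5 to 194, 66.1 to 149 and 117 to 223 TPM, and neutrophil markers (6 of 9 listed, with CSF3R and MPO at 0) to 5.88 to 15.1, 1.99 to 5.60 and 0.904 to 4.44 TPM. In both lists Group 1 reached no higher than the highest heart of Group 2.

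T and NK cell markers (9 of 10 listed) summed to 17.9 to 41.7 TPM in Group 2, 16.7 to 56.0 in Group 1 and 20.7 to 72.1 in Group 3, and B cell markers (6 of 8 listed) to at most 2.48 TPM in any heart. Erythroid markers (4 of 8 listed) summed to 72.3 to 136, 74.1 to 430.4 and 226 to 379 TPM. The HOPE perfusate of Groups 1 and 3 held packed donor red cells, whose part in the erythroid sums was not tested. The part of any of these cell types in the differences of the 9 genes was not tested.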

How the data were processed

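RNA was extracted from frozen apex biopsies of 9 hearts. The authors selected polyadenylated RNA with oligo(dT) and sequenced read pairs. Per the submitters' processing notes and the methods, reads were demultiplexed with bcl2fastq 2.17, trimmed with Trimmomatic 0.36, aligned to an Ensembl Sus scrofa genome with STAR 2.5.2b, and counted with featureCounts of Subread 1.5.2 (uniquely assigned reads only, so a gene with a close copy, such as BIRC3, may be undercounted), and the authors tested counts with DESeq2. The genome build, the strand setting and the gene lengths behind TPM are not given in the sources used here, so no coordinates are printed. The authors deposited 1 table of TPM for 25149 genes, each column of which sums to 1000000. The 9 columns that match the labels were used, and 9 further columns of hearts were not used. Gene symbols are those of the table. It gives none for 12006 genes, of which 748 received a symbol from a reference table through their identifier. No sequences are shown.

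Groups came from the sample labels. The 11782 genes that reached 1 TPM in 3 or more hearts were fitted as log2(TPM + 1) with limma 3.58.1 in R 4.3.3. The fit held all 9 hearts, a mean for each group and a mean-variance trend, and its tests were two-sided. Benjamini-Hochberg adjustment ran over all genes tested. The thresholds were the study's: adjusted p below 0.05 with a log2 fold change above 1 or below -1. The test was not: the study's DESeq2 test on counts called more genes than the limma fit. That fit called 3 of all genes in Group 1 against Group 2, so a gene not called here may have passed in the study. The 3 comparisons share hearts in pairs. Exact permutation tests were run on single genes. Fits were tested on simulated data. The 9 listed genes were all reported. From the pathway lists, the genes past the threshold and the gene with the largest absolute change per list and comparison were named, as were the 10 genes most like the mean standardized level of the 9. RELA, TNF, IL6, and TNIP1 and TLR4 in Group 1 against Group 3, were described besides with their values known, and other unadjusted calls of the lists are counted but not named. The members and lists were chosen with earlier results of these data known. In total 17 alternatives were refitted: a pseudocount of 0.1, no filter, a mean of at least 5 TPM, median-of-ratios scaling, leaving out mitochondrially encoded genes, only the 6 hearts compared, no trend, array weights, and each heart left out in turn. Non-overlap under the scaling and the refits of the pathway genes were added after seeing the data.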

Additional observations from a re-analysis of the deposited data

How the results depend on the processing

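The 27 fold changes of the 9 genes in 3 comparisons were refitted 456 times under the 17 alternatives. Direction and side of the threshold were kept in 437 refits, 6 refits passed the threshold where the reported fit did not, and 13 refits of 5 fold changes turned sign. In Group 1 against Group 2, 1 gene passed when median-of-ratios scaling was used, against 0.0342% of all genes. With array weights 3 genes passed, against 0.509%. In Group 1 against Group 3, 1 passed with array weights and 0 to 1 when a heart was left out (1 without pig 33). In Group 3 against Group 2, the count of genes higher at an unadjusted p under 0.05 was 0 to 1 with a heart left out.

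All sign changes of the 9 genes were in fold changes whose 95% interval included 0. In Group 3 against Group 2, the log2 fold change of NFKBIA was 0.0136 with median-of-ratios scaling, 0.0885 with array weights and -0.26 to 0.12 with a heart left out. That of NFKB2 was -0.0099 without mitochondrially encoded genes and -0.0894 to 0.16 with a heart left out. TNFAIP3 was at 0.0913 with array weights and -0.52 to 0.15 with a heart left out, and TRAF1 at -0.0414 to 0.48. TNFRSF11A, a receptor of the pathway lists, was at -0.25 (without pig 34) to 0.93. In Group 1 against Group 3, BIRC3 was at -0.30 to 0.0662. The cause was not tested. The median over the 9 genes with a heart left out was 0.70 to 1.05, -0.09 to 0.16 and 0.55 to 0.98 in the comparisons of Groups 1 and 2, 3 and 2, and 1 and 3.

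TRAF1 has no value under the filter on a mean of 5 TPM. The array weights stopped before reaching their tolerance. With 3 hearts per group and unknown depth, the precision of low genes such as TRAF1 cannot be separated into counting and animal variation. No paired analysis was possible because pig numbers were not shared between groups.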

Other observations

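The genes whose levels were most like the mean standardized level of the 9 genes over the 9 hearts were searched for among 4882 others with a symbol and a mean of at least 5 TPM. EDC3, a protein of mRNA decapping, came first (Pearson r = 0.97, Spearman rho = 0.90), followed by the adenosine receptor gene ADORA2A, the growth factor HBEGF, the G protein regulator RGS16 and the prostaglandin E synthase PTGES, with r from 0.926 to 0.940. CYTH1, ZFP36L1, GPC4, TSC22D2 and PDE4B completed the 10, with r from 0.895 to 0.906. These correlations are over hearts that share groups and TPM totals, and the genes were picked for them, so no p is given. HBEGF measured 118 ± 57.3 TPM (SD, n = 3) in Group 1, 39.3 ± 7.13 in Group 2 and 37.2 ± 9.29 in Group 3. EDC3 measured 14.2 ± 5.75, 4.94 ± 1.16 and 6.48 ± 1.67 TPM in the same order. None of the 10 passed the limma threshold in any of the 3 comparisons as reported.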
